A study of Mus musculus with 6 samples.

Results

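This account follows 10 interferon-inducible GTPase genes, Gbp2, Gbp3, Gbp5, Gbp7, Irgm1, Irgm2, Igtp, Iigp1, Ifi47 and Tgtp2, in the aorta of mice with angiotensin II-induced aortic disease. They were taken by symbol from a count table of 56748 genes, and each symbol matched 1 row. All 10 were among the 16377 genes that passed the filter on low counts. The question of the study is what changes in the diseased aorta without soluble ST2, a secreted decoy receptor for the cytokine IL-33 encoded by Il1rl1.

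Bulk RNA was sequenced from 6 aortas, 3 in each of 2 groups. The control group (WT) carried the normal soluble ST2 allele, and the sST2-KO group were littermates without soluble ST2. Mice of both groups were 6 months old, lacked apolipoprotein E (Apoe -/-), and had received angiotensin II from an osmotic minipump for 28 days, so no aorta came from a mouse with normal Apoe or without angiotensin II. The sources used here do not say how the sST2 allele was made or which sex the mice were.

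Guanylate-binding proteins (the Gbp genes) and immunity-related GTPases (Irgm1, Irgm2, Igtp, Iigp1, Ifi47 and Tgtp2) are among the most strongly induced products of interferon-gamma. The cytokine binds its receptor, the kinases JAK1 and JAK2 pass the signal on, and factors that include the induced IRF1 switch on the GTPase genes. The proteins gather on the membranes of vacuoles that hold microbes and disrupt them, and guanylate-binding proteins also help caspase-11 to sense bacterial lipopolysaccharide. In a vessel wall they are made by macrophages, endothelium and smooth muscle that have received interferon.

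The genes lie in a few clusters (mm39, coordinates of the deposited table). Gbp5, Gbp7, Gbp3 and Gbp2 lie in that order on the plus strand of chromosome 3, between 142199739 and 142343769. Irgm1 (48752795 to 48762510), Tgtp2 (48948021 to 48955033) and Ifi47 (48967414 to 48987801) share one stretch of chromosome 11. Igtp (58090382 to 58098417) and Irgm2 (58090444 to 58113608) share another stretch of that chromosome, and their gene models overlap on the same strand over 7974 bases. Ifi47 and Tgtp2 lie within the gene model of Olfr56, on the same strand for Ifi47 and on the opposite strand for Tgtp2. Olfr56 had 88 counts over the 6 libraries. Iigp1 lies on chromosome 18, from 60509099 to 60525706.

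Gene starts were searched for letters bound by the factors of the pathway, because the 10 genes share these regulators. RefSeq promoter sequences (build GRCm38.p6) were read for 9 of the 10 genes, in 10 sequences. Iigp1 was not searched, because member sequences of its chromosome were left out. The 250 bases before each start were read on both strands. The gamma-activated site, an element of interferon-gamma responsive promoters, was searched as TTCNNNGAA, which reads the same on both strands. The interferon-stimulated response element, bound by interferon regulatory factors, was searched as GAAANNGAAA and, for the other strand, TTTCNNTTTC. Of the 10 sequences 5 held the first motif and 8 the second. Of all 32851 promoters in the RefSeq table, 7.02% held the first and 2.98% the second. A match is a run of letters, not a measured binding site.

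These windows show the matches in capitals with 20 bases on each side. Igtp (chr11:58199491-58199551, plus strand), Irgm2 (chr11:58214882-58214942, plus strand) and Tgtp2 (chr11:49064253-49064313, minus strand) are set together because each has the gamma-activated motif first and the response element 2 bases after it.
Igtp: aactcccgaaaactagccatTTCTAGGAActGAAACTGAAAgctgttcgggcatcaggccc
Irgm2: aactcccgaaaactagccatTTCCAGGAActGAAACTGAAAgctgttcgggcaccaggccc
Tgtp2: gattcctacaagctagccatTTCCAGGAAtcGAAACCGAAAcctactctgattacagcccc

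The windows of Igtp and Irgm2 were identical at 59 of 61 positions, and those of Igtp and Tgtp2 at 42 of 61. Gbp3 (chr3:142559979-142560034, plus strand) and Gbp7 (chr3:142530210-142530312, plus strand) are shown for the other cluster. In Gbp3 the capitals cover 2 overlapping matches to the response element. In Gbp7 they cover 2 gamma-activated motifs and then 1 response element.
Gbp3: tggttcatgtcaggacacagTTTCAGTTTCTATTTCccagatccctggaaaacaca
Gbp7: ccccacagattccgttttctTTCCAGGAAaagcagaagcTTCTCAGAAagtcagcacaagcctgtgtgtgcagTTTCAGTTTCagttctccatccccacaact

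Among the rest, Gbp2 had 1 response element, from -59 to -50 bases from the start. Irgm1 had 2 overlapping ones, from -30 to -15. Gbp5 had gamma-activated motifs from -245 to -237 and from -52 to -44, with a response element from -165 to -156 between them. Neither motif was found in the window of Ifi47. Positions are counted from the RefSeq start: for Gbp7, Irgm2 and Tgtp2 the bases that follow it did not match a GENCODE vM21 transcript of the gene, and the motif windows of Irgm1 and, for 32 bases, Gbp2 lie inside an annotated transcript.

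**Figure D1:**
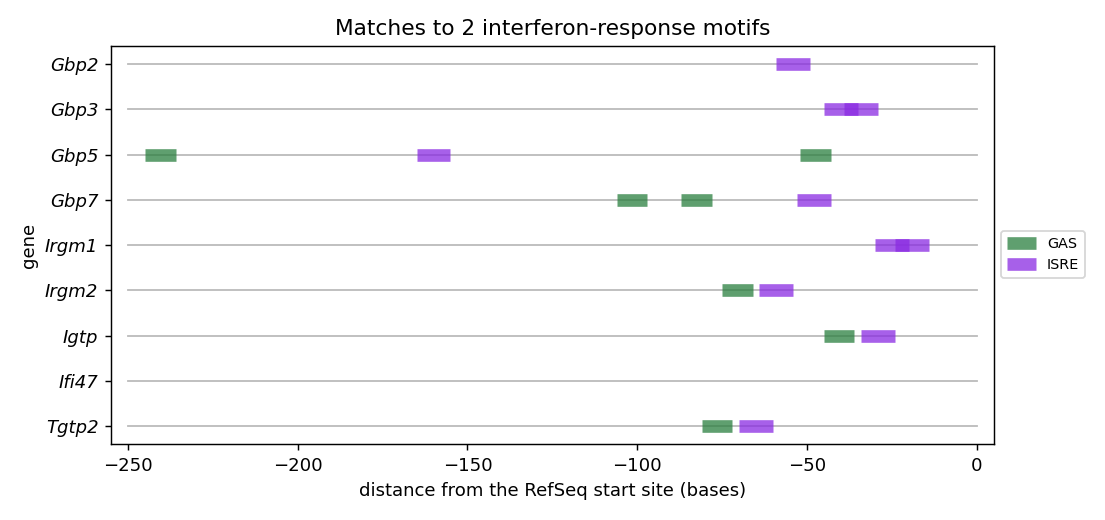
Positions of motif matches in the 250 bases before the RefSeq start site of 9 genes; the x axis is distance from the start in bases, green bars are gamma-activated sites (GAS), and purple bars are interferon-stimulated response elements (ISRE). Irgm2, Igtp and Tgtp2 each have the pair side by side, and Ifi47 has no match.

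Total counts per library were 15615658 to 17988552. Levels are CPM, counts scaled to library size with TMM factors, a correction based on most genes, and 3 counts correspond to 0.148 to 0.239 CPM. Smooth muscle markers, abundant in the arterial wall but not particular to it, summed to 2648 to 9703 CPM. The library of sST2-KO replicate 2 also held airway transcripts, with Scgb1a1, the club cell secretory protein, at 12598 CPM. Liver transcripts were found in WT replicate 3, with albumin (Alb) at 6205 CPM. In WT replicate 2, mitochondrially encoded genes took 37.8% of counts, against 7.08 to 23.7% elsewhere. Counts for the 10 GTPase genes, and some list counts, are also given without these libraries.

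In sST2-KO aortas the mean level of all 10 GTPase genes was lower than in WT, at 31.4 to 78.8% of the WT mean, but no gene passed the test across the whole table. The log2 changes (sST2-KO minus WT) ran from -1.67 for Iigp1 to -0.34 for Tgtp2, with a median of -0.99. Over all tested genes the median was 0.042, and 46.5% had a negative log2 change. The edgeR quasi-likelihood test called 0 of the 10 at an adjusted p under 0.05, beside 0% of all tested genes. At an unadjusted p under 0.05 it had 7 of the 10 lower, beside 5.95% of all tested genes. On the same filtered genes DESeq2 called 5 of the 10 lower, beside 1.42% of all tested genes, but 2, Irgm2 and Iigp1, when the low-count filter was left out, and 2, Irgm2 and Iigp1, were called by limma-voom with sample quality weights, beside 0.214%.

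For 7 of the 10 genes the libraries of the groups did not overlap, all lower in sST2-KO, beside 10% of all tested genes lower without overlap. None was higher without overlap, beside 9.09% of all tested genes. With library totals and no scaling factors, an alternative that moves the median log2 change of all genes to 0.146, 3 of the 10, Gbp2, Irgm2 and Iigp1, separated the groups, beside 5.89% of all tested genes. In bulk tissue, fewer cells of a type and less RNA per cell cannot be told apart.

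**Figure D2:**
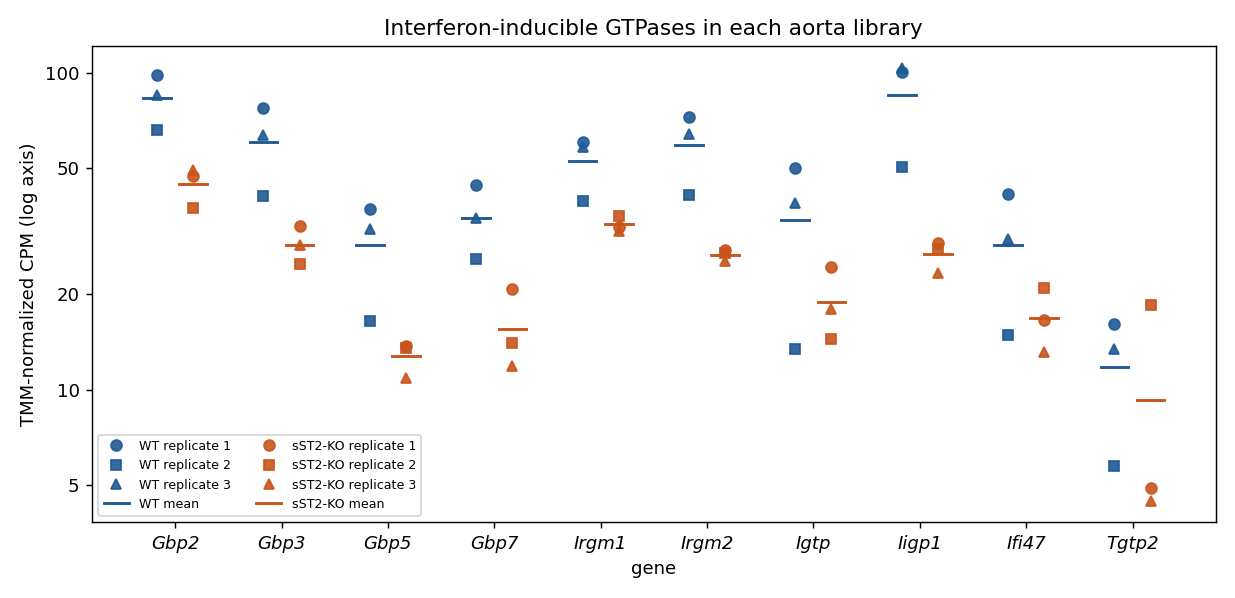
TMM-normalized CPM (log axis) of each gene in the 3 WT (blue) and 3 sST2-KO (orange) libraries, with symbols for the replicate number and a line at each group mean. WT replicate 2 is the lowest WT library for all 10 genes, and Tgtp2 is highest in sST2-KO replicate 2.

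Guanylate-binding proteins of the chromosome 3 cluster are described first. Gbp2, a lipid-anchored member that is recruited to microbial vacuoles, was at 98.3, 66.3 and 85.5 CPM in WT replicates 1 to 3 and at 47.2, 37.5 and 49.3 CPM in sST2-KO replicates 1 to 3. Every WT library was above every sST2-KO library. The WT mean was 83.3 ± 16.1 and the sST2-KO mean 44.7 ± 6.28 CPM (± SD, n = 3 a group), and the log2 change was -0.90 (SE 0.20; edgeR quasi-likelihood adjusted p = 0.348, DESeq2 adjusted p = 0.0251).

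Gbp3 was at 77.4, 41.0 and 63.7 CPM in WT aortas and at 32.8, 24.8 and 28.5 CPM in aortas without sST2, again without overlap. The log2 change was -1.08 (SE 0.26, edgeR adjusted p = 0.368, DESeq2 adjusted p = 0.0305). Gbp5, which promotes assembly of the NLRP3 inflammasome, was at 37.3, 16.4 and 32.1 CPM in WT aortas and at 13.7, 13.6 and 10.8 CPM in aortas without sST2. For Gbp5, WT replicate 2 lay closer to the sST2-KO libraries than to the other 2 WT libraries, although the groups did not overlap. In CPM, WT replicate 2 was also closer to the nearest sST2-KO library than to the nearest WT library for Gbp2, Gbp3, Gbp7, Irgm1, Irgm2 and Iigp1. Its log2 change was -1.17 (SE 0.32, edgeR adjusted p = 0.402, DESeq2 adjusted p = 0.0650).

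Gbp7, linked to assembly of the phagocyte oxidase, was at 44.3, 25.8 and 34.8 CPM in WT aortas and at 20.7, 14.1 and 11.9 CPM in aortas without sST2. These groups did not overlap, and the sST2-KO mean was 44.5% of the WT mean. Its log2 change was -1.17 (SE 0.29, edgeR adjusted p = 0.385, DESeq2 adjusted p = 0.0350). The 4 genes described from this cluster therefore all had sST2-KO means between 44.5 and 53.6% of WT.

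Immunity-related GTPases fall into regulators and effectors. The regulators Irgm1, Irgm2 and Igtp (also called Irgm3) sit on the membranes of the cell's own organelles and keep the effectors inactive there. Irgm1, which also acts in autophagy, was at 60.6, 39.5 and 58.2 CPM in WT aortas and at 32.7, 35.4 and 31.7 CPM in aortas without sST2. The groups did not overlap, but WT replicate 2 was only 1.12 times the highest sST2-KO library. The log2 change was -0.67 (SE 0.20, edgeR adjusted p = 0.422, DESeq2 adjusted p = 0.167).

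Irgm2 was at 72.6, 41.1 and 64.4 CPM in WT aortas and at 27.6, 26.9 and 25.5 CPM in aortas without sST2. The sST2-KO libraries were close to each other, and all lay below WT. The WT mean was 59.4 ± 16.3 and the sST2-KO mean 26.7 ± 1.06 CPM (± SD, n = 3 a group), and the log2 change was -1.16 (SE 0.23; edgeR quasi-likelihood adjusted p = 0.339, DESeq2 adjusted p = 0.00568).

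Igtp was at 50.3, 13.4 and 38.9 CPM in WT aortas and at 24.3, 14.4 and 18 CPM in aortas without sST2. WT replicate 2 was the lowest of all 6 libraries, below every sST2-KO library, while WT replicates 1 and 3 were above them all. Its log2 change was -0.86 (SE 0.47, edgeR adjusted p = 0.511). Omitting WT replicate 2 gave -1.26, and omitting WT replicate 1 gave -0.47 (edgeR adjusted p = 0.415 and 0.737). The mouse transcripts of Igtp and Irgm2 share letters: in GENCODE vM21, 11.8% of the 50-base stretches of Igtp also occur in Irgm2, so some reads could count for either gene.

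The effectors Iigp1, Ifi47 and Tgtp2 are loaded onto vacuoles of intracellular parasites and bacteria. Iigp1 was at 101, 50.6 and 104 CPM in WT aortas and at 29.1, 27.8 and 23.3 CPM in aortas without sST2. It had the widest gap of the 10 genes: WT replicate 2 was 1.74 times, and WT replicates 1 and 3 at least 3.47 times, the highest sST2-KO library. The WT mean was 85.2 ± 30.0 and the sST2-KO mean 26.7 ± 3.05 CPM (± SD, n = 3 a group), and the log2 change was -1.67 (SE 0.29; edgeR quasi-likelihood adjusted p = 0.330, DESeq2 adjusted p = 0.000254). Among the 16377 tested genes its unadjusted p in edgeR ranked 37.

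Ifi47 was at 41.4, 14.8 and 29.9 CPM in WT aortas and at 16.6, 20.9 and 13.1 CPM in aortas without sST2. The groups overlapped because WT replicate 2 lay below sST2-KO replicates 1 and 2. The log2 change was -0.77 (SE 0.38, edgeR adjusted p = 0.489), and it was -0.41 without WT replicate 1 (edgeR adjusted p = 0.706).

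Tgtp2, a T cell specific GTPase by name, departed from the other genes. It was at 16.1, 5.74 and 13.4 CPM in WT aortas and at 4.89, 18.5 and 4.46 CPM in aortas without sST2. The highest of the 6 values was in sST2-KO replicate 2, at 3.95 times the mean of the other 2 sST2-KO libraries. Its log2 change was -0.34 (SE 0.65, edgeR adjusted p = 0.838), and without that library it was -1.34 (SE 0.47, edgeR adjusted p = 0.355). Without WT replicate 1, sST2-KO replicate 1 or sST2-KO replicate 3 it was between -0.052 and -0.013.

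Airway markers summed to 28567 CPM in sST2-KO replicate 2 and to 1.32 to 29.2 CPM in the other libraries, and their part in the Tgtp2 value was not tested. Mx1, an antiviral GTPase induced mainly by type I interferon, was also high there for its group, with 16.3 CPM against 3.24 and 3.26 CPM in the other sST2-KO libraries. Unlike Tgtp2, it was not above every WT library, as Mx1 was at 16.5, 3.35 and 10.4 CPM in WT replicates 1 to 3. Usp18, an inhibitor gene of the pathway chosen after its values were seen, was like Tgtp2 in this. It was at 22.1, 8.29 and 21.3 CPM in WT replicates 1 to 3 and at 25.0 CPM in sST2-KO replicate 2. T cell markers summed to 10.9 CPM in that library, the lowest of the 6. In GENCODE vM21, 85.8% of the 50-base stretches of Tgtp2 transcripts also occur in its near copy Tgtp1, so the counts of the pair are uncertain. Tgtp1 itself was at 4.74, 2.47 and 4.77 CPM in WT aortas and at 2.67, 1.68 and 3.53 CPM in aortas without sST2, with no high value in sST2-KO replicate 2.

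Levels can be compared between genes only per length, here CPM per kilobase of the deposited gene length. In WT the highest was Gbp2, at 33.1 ± 6.41, followed by Gbp3 at 18.6 ± 5.64, Igtp at 16.9 ± 9.35, Irgm2 at 16.1 ± 4.43 and Iigp1 at 14.6 ± 5.15 (± SD, n = 3 a group). Those 4 below Gbp2 differed by less than their spread. Ifi47 at 11.6 ± 5.38 and Irgm1 at 9.08 ± 1.98 came next, and Gbp7, Gbp5 and Tgtp2 were at 6.23 ± 1.64, 4.31 ± 1.64 and 4.0 ± 1.83. In sST2-KO, Gbp2 was again highest at 17.7 ± 2.5, while Iigp1 was at 4.59 ± 0.524 per kilobase, below Irgm1 at 5.73 ± 0.329.

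The WT libraries were ordered alike by most of these genes, while the order of the sST2-KO libraries varied between genes. WT replicate 1 was the highest library for 8 of the 10 genes, WT replicate 3 for Iigp1 and sST2-KO replicate 2 for Tgtp2. WT replicate 2 was the lowest WT library for all 10, with WT replicate 1 at 1.48 times its level for Gbp2 and 3.75 times for Igtp. WT replicates 1 and 3 were both above every sST2-KO library for 9 of the 10, all but Tgtp2. As a summary, the median over the 10 genes of each gene's centred log2 CPM (its own mean subtracted) was 0.94, -0.035 and 0.62 in WT replicates 1 to 3. It was -0.35, -0.61 and -0.64 in sST2-KO replicates 1 to 3, so WT replicate 2 lay nearer to sST2-KO replicate 1 than to either other WT library.

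Likeness to the family pattern was measured as the root-mean-square distance between a gene's centred log2 CPM and the mean of the other 9, over the 6 libraries. Gbp5 was nearest at 0.094 and Irgm2 next at 0.14, while Igtp was at 0.41 and Tgtp2 farthest at 0.72. The distance of Iigp1 was 0.38.

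Other interferon-inducible GTPases were read from a list of 18, of which 15 were tested; besides relatives of the 10 genes it holds Mx1, Mx2 and Gvin1, which belong to other families. The log2 change was negative for all 15, at a median of -0.98, and edgeR called 0. At an unadjusted p under 0.05 there were 5 lower (5.95% of all tested genes) and 0 higher, DESeq2 called 2 lower (1.42% of all), and 6, Mx2 and Gvin1 among them, had groups without overlap (10% of all). Without WT replicate 2, 13 of 16 tested had groups without overlap, beside 16.7% of all tested genes; leaving out WT replicate 3 together with sST2-KO replicate 2 gave 6 of 15, beside 21.9%. The lowest p belonged to 9930111J21Rik2, with 10.6 ± 1.24 CPM in WT aortas and 3.71 ± 1.75 CPM in aortas without sST2 (± SD, n = 3 a group; DESeq2 adjusted p = 0.0211). Gm4951, a relative of Iigp1, had 11.4 ± 4.24 and 3.55 ± 1.40 CPM (± SD, n = 3 a group; DESeq2 adjusted p = 0.0327). Gm12250, listed as a pseudogene in the deposited table although it encodes the effector Irgb10, had 11.7, 2.07 and 6.98 CPM in WT aortas and 2.56, 1.73 and 2.66 CPM in aortas without sST2, so WT replicate 2 overlapped the sST2-KO libraries. Mx2 had a log2 change of -1.46 (SE 0.51).

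The guanylate-binding genes Gbp4, Gbp9 and Gbp10, chosen after their values were seen, were less separated. Gbp4 was at 31.5, 23.6 and 30.2 CPM in WT aortas and at 36.1, 9.01 and 20.3 CPM in aortas without sST2, and Gbp9 at 42.7, 29.6 and 32.3 CPM and at 41.2, 16.2 and 24.7 CPM. For both, sST2-KO replicate 1 was within or above the WT range. Their log2 changes were -0.38 (SE 0.46) and -0.35 (SE 0.35). Gbp10 had 59, 0 and 46 counts in WT and 11, 0 and 1 counts in sST2-KO, so that it was not detected in 2 libraries.

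**Figure D3:**
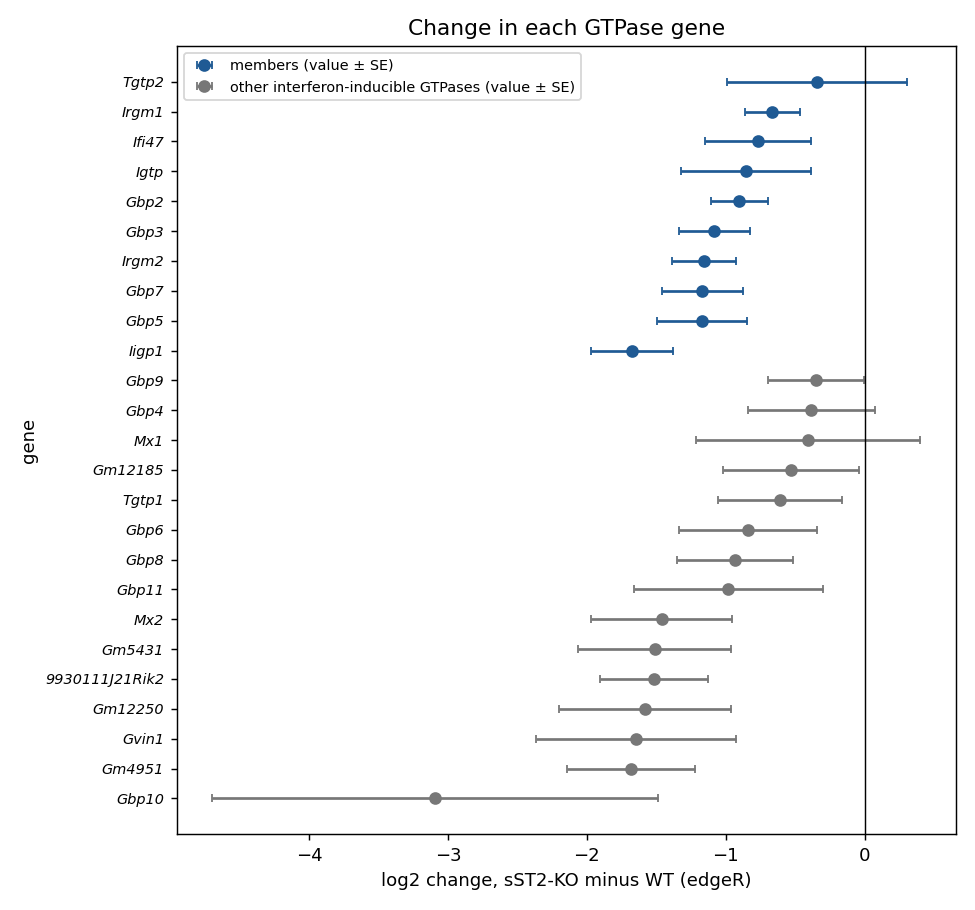
Log2 change, sST2-KO minus WT, with its standard error from edgeR, for the 10 genes described (blue) and 15 other interferon-inducible GTPases (grey). All 25 values are negative, from -3.09 for Gbp10 to -0.34 for Tgtp2, with Iigp1 at -1.67, and none passed the adjusted threshold.

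Upstream, the ligand and receptor genes were read from a list of 8. Ifng, the ligand, had 6, 0 and 2 counts in WT and 1, 0 and 0 counts in sST2-KO, too few to test at this depth. The log2 change was negative for all 7 tested, at a median of -0.41. EdgeR and DESeq2 called 0 of them, and 3 were lower in edgeR at an unadjusted p under 0.05, beside 5.95% of all tested genes. These were the receptor chain Ifngr2 and the kinases Jak1 and Jak2. Their groups did not overlap, beside 10% of all tested genes lower without overlap. Ifngr2 had 68.3 ± 6.57 CPM in WT aortas and 51.2 ± 2.05 CPM in aortas without sST2, and Jak2 had 61.3 ± 5.23 and 43.9 ± 5.50 CPM (± SD, n = 3 a group). Jak1 had a log2 change of -0.50 (SE 0.18), and the other receptor chain, Ifngr1, had one of -0.14 (SE 0.20).

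The transcription factor genes Irf1 and Irf8 were read next. Irf1 was at 59.7, 32.8 and 47.8 CPM in WT aortas and at 51.2, 39.8 and 37.9 CPM in aortas without sST2, and the groups overlapped. For Irf1 the log2 change was -0.12 (SE 0.25), and for Irf8, a factor of macrophages, it was -0.49 (SE 0.33). Whether these changes differ from those of the GTPases was not tested.

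Inhibitors of the pathway were read from a list of 6. The log2 change was negative for all 6, at a median of -0.22. EdgeR and DESeq2 called 0, and 1, the phosphatase gene Ptpn6, was lower in edgeR at an unadjusted p under 0.05, beside 5.95% of all tested genes. Ptpn6 had 44.7 ± 12.7 CPM in WT aortas and 24.1 ± 6.39 CPM in aortas without sST2 (± SD, n = 3 a group). Socs1, which blocks JAK kinases, was at 7.83, 3.35 and 5.37 CPM in WT aortas and at 8.92, 4.11 and 3.06 CPM in aortas without sST2, with a log2 change of -0.043 (SE 0.52).

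Genes that induce interferon-gamma were mostly near the detection limit: 6 of 11 were tested, and edgeR and DESeq2 called 0. Stat4, which carries the IL-12 signal, had 2.14 ± 0.376 CPM in WT aortas and 0.775 ± 0.385 CPM in aortas without sST2 (± SD, n = 3 a group; edgeR adjusted p = 0.435). It was the 1 gene of the list with an unadjusted p under 0.05 in edgeR, beside 5.95% of all tested genes lower. Il18r1, a receptor for IL-18, was at 69.3 CPM in sST2-KO replicate 2, the library with airway transcripts, and at 1.04 to 9.04 CPM elsewhere.

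Other products of interferon-gamma were read next. Of 20 listed genes 17 were tested (Wars1 was not analysed here), with 13 negative and 4 positive log2 changes and a median of -0.43. EdgeR called 0, DESeq2 called 1 (1.42% of all tested genes lower) and limma-voom with quality weights 1 (0.214%). In edgeR 4 were lower at an unadjusted p under 0.05, beside 5.95% of all tested genes. Of the 17, 2 had groups without overlap, beside 10% of all tested genes. Without WT replicate 2, 16 of the 17 log2 changes were negative and 12 had groups without overlap, beside 16.7% of all tested genes. Xaf1 had 40.1 ± 12.5 CPM in WT aortas and 17.7 ± 1.53 CPM in aortas without sST2 (± SD, n = 3 a group; edgeR adjusted p = 0.348, DESeq2 adjusted p = 0.0168). Batf2, a transcription factor of activated macrophages, had 2.11 ± 0.754 and 0.987 ± 0.0424 CPM (± SD, n = 3 a group). The chemokine Cxcl10, which draws T cells, was at 8.66, 1.83 and 10.4 CPM in WT aortas and at 2.16, 0.940 and 2.73 CPM in aortas without sST2. Irf7, also a type I interferon product, was at 127, 24.8 and 105 CPM and at 28.4, 31.0 and 27.9 CPM. For Cxcl10, WT replicate 2 lay among the sST2-KO libraries, and for Irf7 it lay below all of them.

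Genes of antigen processing are given as a set, chosen after their values were seen. The log2 changes were -0.42 (SE 0.35) for the peptide transporter gene Tap1, 0.12 (SE 0.34) for Tap2, and -0.43 (SE 0.55), -0.64 (SE 0.44) and 0.012 (SE 0.44) for the immunoproteasome genes Psmb8, Psmb9 and Psmb10. They were -0.66 (SE 0.41) for Nlrc5 and -0.92 (SE 0.44) for Ciita, the master regulators of MHC class I and class II genes. The groups overlapped for all 7. In Psmb10, WT replicate 2 was at 13.7 CPM, against 48.7 and 44.7 CPM in the other WT libraries. The chemokine Cxcl9 had a log2 change of -0.62 (SE 0.64), and Cd274, which encodes the checkpoint ligand PD-L1, had one of -0.25 (SE 0.36).

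By the median per library used above, the list of other targets was at 0.83, -0.74 and 0.44 in the WT aortas and at 0.26, -0.54 and -0.20 in the sST2-KO ones. The groups overlapped there, with WT replicate 2 the lowest library.

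Proteins that work with the GTPases were read from 2 lists. Autophagy conjugation genes, which help load GTPases onto vacuoles, had 5 negative and 9 positive log2 changes among 14, with a median of 0.17; edgeR and DESeq2 called 0. Of the 14, 5 were higher in sST2-KO without overlap, beside 9.09% of all tested genes, and 1 was lower. Without WT replicate 3 and sST2-KO replicate 2, 7 were higher and 5 lower without overlap, beside 22.3% and 21.9% of all tested genes. Map1lc3a, which encodes an LC3 protein, had 71.5 ± 24.2 CPM in WT aortas and 126 ± 19.1 CPM in aortas without sST2 (± SD, n = 3 a group). It was the 1 gene of that list with an unadjusted p under 0.05 in edgeR, beside 832 of the 16377 tested genes higher. In the caspase-11 and inflammasome list, 6 of 7 log2 changes were negative, with a median of -0.64; edgeR and DESeq2 called 0. Il1b had 12.9 ± 2.92 and 4.27 ± 3.25 CPM and Nlrp3 had 4.18 ± 2.5 and 1.44 ± 0.581 CPM (± SD, n = 3 a group). These 2 of the 7 separated the groups, beside 10% of all tested genes lower without overlap. Casp4, which encodes caspase-11 and was chosen after its value was seen, had a log2 change of -0.23 (SE 0.20).

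Markers of cells that carry these GTPases moved with part of the pattern. In the macrophage list 11 of 12 log2 changes were negative, with a median of -0.998, and 8 of the 12 separated the groups lower in sST2-KO, beside 10% of all tested genes. EdgeR called 0, and DESeq2 called 6, beside 1.42% of all. Without WT replicate 2, 10 of the 12 separated the groups, beside 16.7% of all tested genes. Adgre1, the F4/80 marker, had 91.5 ± 2.64 CPM in WT aortas and 32.2 ± 9.07 CPM in aortas without sST2 (± SD, n = 3 a group). Summed over the list, macrophage markers were at 3155 to 3698 CPM in WT and at 2139 to 3885 CPM in sST2-KO, where Lyz2 alone had 3152 CPM in the library with airway transcripts. The list's median per library was 0.56, 0.31 and 0.54 in the WT aortas and -0.057, -0.70 and -0.73 in the sST2-KO ones. Adgre1 was at 94.5, 89.3 and 90.9 CPM in WT replicates 1 to 3. Others of the list were low in WT replicate 2: Fcgr1 was at 45.5, 17.2 and 41.0 CPM, and C1qa at 358, 187 and 360 CPM, in WT replicates 1 to 3.

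T cells and NK cells, the makers of interferon-gamma, left little RNA. T cell markers summed to 38.1, 21.7 and 30.1 CPM in WT and to 50.4, 10.9 and 20.02 CPM in sST2-KO. The NK cell markers tested, 4 of 8, summed to 4.15 to 11.6 CPM in WT and to 1.53 to 5.45 CPM in sST2-KO; the defining receptor Ncr1 had 24, 0 and 6 counts in WT aortas and 5, 4 and 5 in those without sST2. Endothelial markers summed to 828 to 991 CPM in WT and to 646 to 1647 CPM in sST2-KO, all 6 with positive log2 changes and none with groups apart. Smooth muscle markers summed to 8571 CPM in WT replicate 2, against 2648 and 3948 CPM in the other WT libraries. Fibroblast markers had negative log2 changes for 5 of 5 genes. Of the 5, 3 separated the groups lower in sST2-KO, beside 10% of all tested genes. They summed over the list to 6222 to 8168 CPM in WT and to 2859 to 4349 CPM in sST2-KO. The part of these cell types in the GTPase values was not tested.

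**Figure D4:**
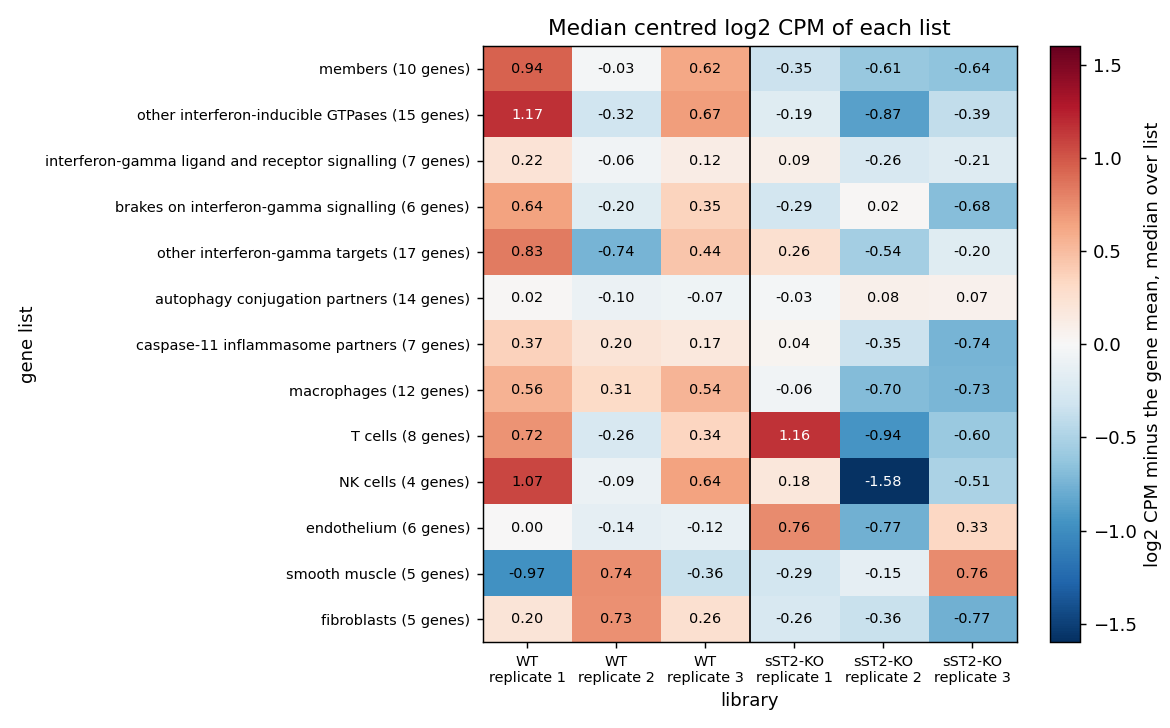
Median over each list's tested genes of centred log2 CPM, by library (columns) and list (rows, with the number of genes; "members" are the 10 GTPases described); red is above and blue below the mean over the 6 libraries. The GTPases run from 0.94 in WT replicate 1 to -0.64 in sST2-KO replicate 3, with WT replicate 2 near 0 at -0.03. The lists of macrophages, fibroblasts and caspase-11 inflammasome partners stay positive in all 3 WT libraries.

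Leaving out the pair of libraries with liver and airway transcripts (WT replicate 3 and sST2-KO replicate 2) kept all 10 log2 changes negative, with a median of -1.03. With 2 libraries left in each group, 8 of the 10 separated them, beside 21.9% of all tested genes, and edgeR called 0 of the 10. Without WT replicate 2 the median was -1.29 and 9 of the 10 separated the groups, beside 16.7% of all tested genes.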

How the data were processed

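Bulk poly-A RNA-seq of 6 mouse aortas was analysed, grouped by sample title. The values deposited by the authors are raw counts for each Ensembl gene, beside symbols, coordinates and gene lengths. The build is mm39, per the submitters' processing notes. Aligner, counter, strand setting and annotation were not stated in the sources used, so reads of overlapping genes or near copies may be assigned to either. Every column of counts was matched to a sample.

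The test was edgeR 4.0.16 (R 4.3.3), with filterByExpr (minimum count 10, minimum total 15), TMM, glmQLFit and glmQLFTest, Benjamini-Hochberg adjustment over 16377 genes, threshold 0.05. The SE is the log2 change divided by the square root of F. DESeq2 1.42.0 and limma 3.58.1 (voom with sample quality weights) were run on the same filtered genes. Centred values are log2 CPM (prior count 2). No 2 libraries agreed within sampling noise.

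The members and lists were chosen with earlier results of these data known. Named genes are the 10 members, fixed genes of the pathway, up to 4 genes of lowest p per list, abundant cell type markers and the 10 nearest profiles; the text marks others as picked with their values known, which also holds for Mx1, Tgtp1, Il18r1 and other genes used to show the airway library or a near copy. Shared transcript letters were counted in GENCODE vM21, and plots drawn with matplotlib 3.10.9. Alternatives were RLE, upper-quartile and no scaling, other filters, other tests, a replicate block and left-out libraries. 1 gene of the signalling list is not reported here.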

Additional observations from a re-analysis of the deposited data

How the results depend on the processing

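Under 18 alternatives, 3 of them chosen after seeing the data (library totals without scaling factors, mitochondrially encoded genes left out, and DESeq2 with no low-count filter), no log2 change of the 10 genes changed sign. Of the 180 values, 171 kept their side of the threshold and 9 passed it, all with DESeq2 or limma-voom with sample quality weights. DESeq2 called 232 lower and 59 higher genes in all, with 5 of the 10; with no low-count filter it called 164 lower and 55 higher, with 2 of the 10. The calls of Gbp2, Gbp3 and Gbp7 thus depended on the filter. For limma-voom with quality weights the counts were 35 and 8, with 2 of the 10. Without scaling factors 3 of the 10 separated the groups, against 7. Leaving out 1 library at a time gave 0 to 1 lower genes called in all (1 without sST2-KO replicate 2), 0 of the 10 called, 7 to 9 of the 10 without overlap (13.1 to 17.4% of all tested genes, against 10%), and a median log2 change of -1.29 (without WT replicate 2) to -0.81 (without WT replicate 1).

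With a replicate block, edgeR called 0 genes and the median over the 10 was -0.97; the block changed no call. Same-numbered libraries had correlations of 0.15, 0.046 and -0.087 between their deviations from the group means, so the numbers were not taken to pair the mice, although 4 of 6 libraries correlated best with their own number. With 3 mice a group and the spread seen here, differences of the size found did not pass in edgeR. The lowest edgeR adjusted p over all genes was 0.264.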

Other observations

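Genes outside the family with the most similar pattern over the 6 libraries were named by the root-mean-square distance of their centred log2 CPM to the mean of the 10 GTPases. Genes were picked for this likeness, so their group values are descriptions. The nearest were Epyc, a proteoglycan gene, and Npy, which encodes neuropeptide Y, both at 0.11. Lat2 (0.12) and Sash3 (0.14) encode signalling adaptors of blood cells. Dhx58, an RNA sensor (0.12), Ch25h, the cholesterol 25-hydroxylase (0.13), and Rnf213, a large ubiquitin ligase (0.14), are known interferon-induced genes. Nlrp1b, an inflammasome sensor (0.15), Gm35315 (0.14) and Gm26947 (0.16) complete the 10. The median distance over all tested genes was 0.69.

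Rnf213, the most abundant of them, had 123, 72.3 and 114 CPM in the WT libraries, in replicate order, and 63.4, 49.8 and 45.0 CPM in the sST2-KO libraries. Ch25h had 11.1, 5.26 and 10.3 CPM in WT and 3.75, 4.50 and 3.19 CPM in sST2-KO. In both, WT replicate 2 was the lowest WT library and above every sST2-KO library.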
